A study of Mus musculus with 18 samples.

Results

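The MYB transcription factors and the partners of the MuvB complex were followed in testes of juvenile mice with 2 copies of repro9, a mutant Mybl1 allele, and of wild-type mice. The genes were Mybl1, Mybl2 and Myb of the MYB family, Lin9, Lin37, Lin52 and Lin54 of the MuvB complex, Foxm1, and Tesmin, a relative of Lin54. They were chosen by name, with earlier results of these arrays known, so the counts of calls among them are no independent evidence. Each probe set that the array's annotation gives to 1 of these 9 genes alone was taken. This gave 22 of the array's 45037 probe sets, with the Affymetrix controls left out. To be tested, a probe set had to exceed the 40th percentile of the array on 3 arrays or more. Of the 22 probe sets 19 passed, among 34764 of the whole array, and each of the 9 genes kept at least 1. A pair of Myb probe sets and 1 of Foxm1 did not pass, and 2 further probe sets that Lin52 and Foxm1 share with other genes were left out of the counts.

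The study measured total RNA of testes on 18 Affymetrix mouse arrays. The groups were repro9/repro9 mutants at 17 days postpartum (dpp; 5 arrays), wild type at 17 dpp (5 arrays), repro9/repro9 mutants at 14 dpp (5 arrays) and wild type at 14 dpp (3 arrays). The series' text says that the older age was picked for late pachytene and diplotene spermatocytes and the younger age for early and middle pachytene ones. No strain or further allele is given in the sources used here, and none ties an array to 1 animal, so the p-values measure the spread between arrays, which may be technical. The mutant mice carry the allele in every cell, and it is known as a chemically induced missense change, which leaves the transcript in place. The Mybl1 signal therefore does not check the genotype labels.

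A-MYB, the product of Mybl1, is the MYB factor of male germ cells in meiosis and a known activator of pachytene genes and of precursors of pachytene piRNAs. Its relatives are B-MYB (Mybl2), known from proliferating cells of most tissues, and c-MYB (Myb), known from blood progenitors. MuvB is a core of LIN9, LIN37, LIN52, LIN54 and the histone binding protein RBBP4. In dividing cells it is known to repress cell cycle genes together with p107 or p130 and E2F4 or E2F5 as the DREAM complex, and to activate genes of G2 and mitosis together with B-MYB and then FOXM1. LIN54 binds DNA through cysteine-rich CXC repeats, which Tesmin, a protein known from spermatocytes, also carries.

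The Tesmin promoter is shown because, by probe sets of 1 gene alone, Tesmin was the member beside Mybl1 whose signal fell in the mutants. That of Lin54 is shown because it is the relative of Tesmin that did not fall. The letters are those of RefSeq (build GRCm38.p6), from 250 bases before to 50 after the annotated start, in the 5' to 3' direction of the gene. Capitals mark the letters TTTGAA, the core of the element that LIN54 is known to bind, and AACNG, the core of the known MYB site, on either strand. The table holds 2 windows for each of the 2 genes. The first of each is printed, and the choice was made with its matches known. The Tesmin window lies at chr19:3388607-3388906 (+ strand) and the Lin54 window at chr5:100500590-100500889 (− strand).
Tesmin: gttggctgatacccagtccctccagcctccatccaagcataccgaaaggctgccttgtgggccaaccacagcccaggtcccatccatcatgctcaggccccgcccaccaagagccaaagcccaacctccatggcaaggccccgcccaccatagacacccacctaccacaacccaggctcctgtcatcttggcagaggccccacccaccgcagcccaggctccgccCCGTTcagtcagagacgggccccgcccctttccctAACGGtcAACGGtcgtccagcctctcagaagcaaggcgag
Lin54: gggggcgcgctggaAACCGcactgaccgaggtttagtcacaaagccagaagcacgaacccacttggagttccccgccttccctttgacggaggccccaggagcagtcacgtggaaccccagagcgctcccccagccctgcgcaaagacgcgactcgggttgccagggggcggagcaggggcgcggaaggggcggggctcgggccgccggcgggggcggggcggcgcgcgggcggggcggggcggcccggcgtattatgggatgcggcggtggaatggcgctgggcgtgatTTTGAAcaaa
The Tesmin window held AACNG at 3 places, and 2 of them followed each other closely on the gene's strand, starting 10 and 17 bases after the start. Such a pair on 1 strand within 10 bases was found in 4.18% of 32851 RefSeq promoters and in 1 of 8 windows of 6 members (Mybl2, Myb, Lin37, Lin52, Lin54 and Tesmin). The pair was looked for after the sequence had been seen. The second Tesmin window held AACNG once, on the opposite strand 80 bases before its start, with no such pair, and the second Lin54 window held TTTGAA 162 bases before its start and no AACNG. The letters AACNG stood in 7 of the 8 windows and in 80.3% of all promoters. TTTGAA stood in 3 of the 8 windows (Lin37 and both of Lin54) and in 17.9% of all promoters. These matches describe the letters only.

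Facts of the arrays bear on each value below. For β-actin, the signal of the 3' control probe set over that of the 5' one split the arrays 3 ways, into sets with no name in the labels. It ran from 2.31 to 2.92 on the 7 arrays of set 1, which held both genotypes at both ages, from 1.45 to 1.49 on the 4 arrays of set 2 (14 dpp), and from 103 to 125 on the 7 arrays of set 3 (17 dpp). A high ratio means that labelled transcripts reach less far toward their 5' ends. Replicates 1 and 2 of each group lay in set 1, except wild-type replicate 2 at 17 dpp, which lay in set 3. Each set held both genotypes, so genotype differences are also given from a fit that blocks on the array set, and by set. Wild type had 1 array in set 1 at 17 dpp and 1 in set 2 at 14 dpp, and the test within those sets takes that array to vary like the arrays of the other groups. The ages could be compared within set 1 alone, with 1 wild-type array at 17 dpp. Median signals per array lay between 88.7 and 149, and the number of arrays limits the precision. The mean signal without the extremes was 395 on the arrays of set 3 and 500 on those of sets 1 and 2. Differences are log2 of mutant over wild type with the standard error of limma. The median difference over all probe sets was 0.25 at 17 dpp and 0.06 at 14 dpp. Because whole testes were measured, fewer cells of a type and less RNA per cell cannot be told apart.

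At 17 dpp 2 genes stood apart from the other 7 by the probe sets of 1 gene alone. These were Mybl1 and Tesmin, and both were lower in the mutants. Of the 19 probe sets 2 passed the test, both lower (limma, adjusted p under 0.05), against 5.33% of all probe sets in either direction and 3.86% lower. The same 2 were those whose mutant arrays all lay below all wild-type arrays, which held for 3.31% of all probe sets. With the array set as a block 4 of the 19 were called (3 lower and 1 higher), against 18.8% of all probe sets.

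At 14 dpp Mybl1 and Tesmin again had the most negative differences. Of the 19 probe sets 1 passed, a Tesmin probe set, lower in the mutants, against 0.196% of all probe sets, every one of which was lower. All mutant arrays lay below all wild-type arrays for 6 of the 19, namely both probe sets of Mybl1 and all 4 of Tesmin, against 3.08% of all probe sets. With the block 2 of the 19 were called, both of Tesmin, against 0.368% of all.

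Mybl1 has 2 probe sets, and the brighter one (1456951_at) passed the test at 17 dpp. It read there 293, 278, 123, 83.4 and 154 in mutants (replicates 1 to 5), against 1076, 1475, 2309, 1419 and 3959 in wild type. The highest mutant array lay below the lowest wild-type array, and the 2 mutant arrays of set 1 were higher than the 3 of set 3, while the wild-type array of set 1 was the lowest of its group. The geometric mean was 167 in mutants and 1831 in wild type, a difference of −3.46 ± 0.45 or 11-fold (n = 5 each, limma adjusted p = 5.25e-05). Mutant replicate 4 was below its array's 40th percentile, so the fold includes a value near the background. Set 1 alone gave −1.92 (adjusted p = 0.076, with 1 wild-type array) and set 3 alone −4.17 (adjusted p = 1.25e-06). Without set 3 the call was lost (−1.92, adjusted p = 0.141).

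At 14 dpp the same probe set read 249, 233, 85.1, 68.1 and 95.6 in mutants, against 512, 775 and 651 in wild type. Mutant and wild-type arrays again did not overlap, and the mutant arrays of set 1 lay above those of set 2. On 2 of the 5 mutant arrays the signal was below the array's 40th percentile, near the background. The difference of −2.33 ± 0.52 did not pass (adjusted p = 0.112), nor did it with the block (−2.07, adjusted p = 0.0655). Set 1 alone gave −1.39 (adjusted p = 0.622) and set 2 alone −2.99 (adjusted p = 0.0321, with 1 wild-type array).

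The dimmer Mybl1 probe set (1450481_at) read 54.7, 56.4, 176, 50.7 and 93.2 in mutants at 17 dpp, against 174, 96.1, 176, 145 and 218 in wild type. Here the groups overlapped, since mutant replicate 3 reached the wild-type level, and the difference of −1.03 ± 0.58 did not pass (adjusted p = 0.348). At the younger age it read 40.4, 41.6, 65.6, 5.99 and 86.6 in mutants, against 124, 122 and 208 in wild type. The groups did not overlap there, only 1 mutant array was above its 40th percentile, and the difference was −2.04 ± 0.67 (adjusted p = 1). Both Mybl1 probe sets thus had negative differences at both ages, of unequal size at 17 dpp.

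Tesmin has 4 probe sets, and the brightest (1443831_s_at) was the 1 member probe set that passed at 14 dpp. At 17 dpp it read 827, 770.4, 345, 452 and 205 in mutants, against 4872, 3161, 2736, 3833 and 3616 in wild type. No mutant array came near a wild-type one, and the 2 mutant arrays of set 1 were the highest of their group. The geometric mean was 459 in mutants and 3575 in wild type, a difference of −2.96 ± 0.39 or 7.79-fold (n = 5 each, limma adjusted p = 6.07e-05).

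At 14 dpp this probe set read 191, 219, 186, 70.3 and 100.5 in mutants, against 1045, 1911 and 978 in wild type. Mutant replicate 4 was below its array's 40th percentile, near the background. The groups did not overlap, and the difference of −3.15 ± 0.45 or 8.88-fold passed (mutants n = 5, wild type n = 3, limma adjusted p = 0.00245). By set the difference was −2.61 (set 1, adjusted p = 0.00915, with 1 wild-type array) and −3.38 (set 3, adjusted p = 6.87e-06) at 17 dpp, and −2.79 (set 1, adjusted p = 0.00654) and −3.16 (set 2, adjusted p = 0.0201, with 1 wild-type array) at 14 dpp. Leaving out 1 array at a time kept it past the threshold at 14 dpp, with an adjusted p of up to 0.0496. The mean over all Tesmin probe sets did not pass at 17 dpp (−1.32, adjusted p = 0.0849) or at 14 dpp (−2.25, adjusted p = 0.108).

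**Figure D1:**
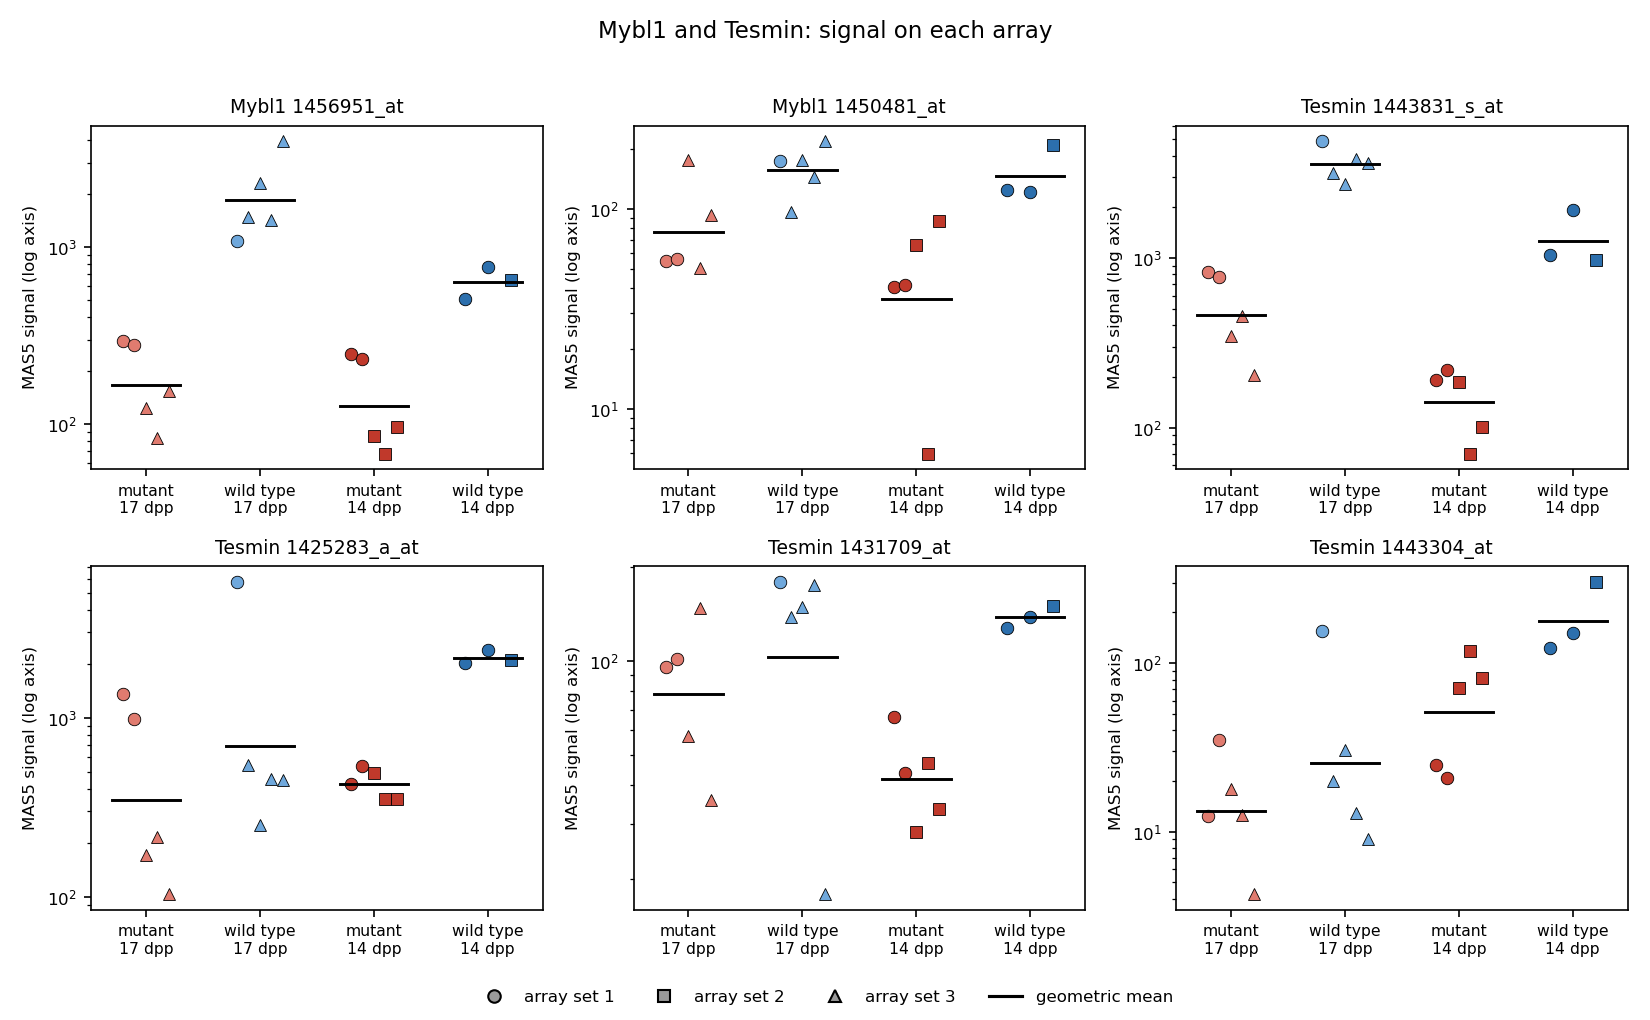
MAS5 signal (log axis) of both Mybl1 and all 4 Tesmin probe sets on each of the 18 arrays, with 1 point per array, its shape giving the array set, and a bar for each group's geometric mean; mutants stand left of wild type at each age. For 1456951_at and 1443831_s_at all mutant points lie below all wild-type points of the same age, and for 1425283_a_at at 17 dpp the points of set 3 lie below those of set 1 in both genotypes.

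The second Tesmin probe set by brightness (1425283_a_at) differed between array sets at 17 dpp. It read there 1362, 978, 171, 215 and 103 in mutants, against 5754, 545, 252, 452 and 446 in wild type. Over all arrays the groups overlapped, but within set 1 (mutant replicates 1 and 2, wild-type replicate 1) and within set 3 (the others) each mutant array lay below each wild-type array. The part of the array sets in these values was not tested. The difference of −0.997 ± 0.74 did not pass (adjusted p = 0.492), while it was −1.65 ± 0.25 with the block (adjusted p = 1.53e-04), −2.32 in set 1 (adjusted p = 0.00962, with 1 wild-type array) and −1.39 in set 3 (adjusted p = 0.00592).

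At 14 dpp 1425283_a_at read 425, 539.6, 489, 352 and 350.3 in mutants, against 2013, 2388 and 2100.4 in wild type. These groups lay far apart with little spread, and the difference was −2.35 ± 0.85. It did not pass (adjusted p = 1) in the fit that shares 1 spread over all 4 groups. With the block it was −2.29 ± 0.29 (adjusted p = 4.09e-04), and within set 1 it was −2.20 (adjusted p = 0.0187).

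The other Tesmin probe sets were dim. At 17 dpp 1431709_at ran from 36.0 to 148 (median 96.0) in mutants, against 17.9 to 179.7 (median 149.6) in wild type. Wild-type replicate 5 was the lowest array of all there, so the groups overlapped, and the difference was −0.39 ± 0.56 (adjusted p = 0.754). At 14 dpp it ran from 28.3 to 66.4 in mutants, on each array below the 40th percentile, against 127 to 149.8 in wild type (difference −1.72 ± 0.65, adjusted p = 1). At 17 dpp 1443304_at was above the 40th percentile on 0 of 5 mutant arrays, against 1 of 5 wild-type arrays, where it read 156 (difference −0.94 ± 0.76, adjusted p = 0.534). Its range at 14 dpp was 20.9 to 118 in mutants, against 124 to 304 in wild type (difference −1.80 ± 0.88, adjusted p = 1). All 4 Tesmin probe sets had negative differences at both ages.

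Over both ages together the mean genotype difference was called for the same 2 probe sets of the 19, with −2.90 ± 0.34 for Mybl1 1456951_at (limma adjusted p = 2.55e-05) and −3.06 ± 0.30 for Tesmin 1443831_s_at (adjusted p = 2.82e-06), against 2.77% of all probe sets. With the block 5 of 19 were called, against 8.6% of all, and the added ones were Mybl1 1450481_at (−1.51, adjusted p = 0.0484), Tesmin 1425283_a_at (−1.97, adjusted p = 1.63e-06) and Tesmin 1443304_at (−1.79, adjusted p = 0.015). The genotype difference itself did not pass a test of change between the ages for any member (limma 0 of 19 called and 0 at an unadjusted p under 0.05, against 0.204% of all probe sets called, or 1.2% with the block, where again 0 of 19 were). For Mybl1 1456951_at the difference at 17 dpp minus that at 14 dpp was −1.12 ± 0.69 (adjusted p = 0.963), and for Tesmin 1443831_s_at it was 0.19 ± 0.60 (adjusted p = 0.987).

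The relatives of Mybl1 did not pass between genotypes. Mybl2, by its brighter probe set (1417656_at), read 185, 221, 154, 149.6 and 89.7 in mutants at 17 dpp, against 151, 162, 103, 141 and 151 in wild type. The groups overlapped nearly in full, with a difference of 0.13 ± 0.26 and a 95% interval from −0.42 to 0.68 (limma adjusted p = 0.836). At the younger age it read 292, 330.0, 348, 370.0 and 354 in mutants, against 344, 266 and 299 in wild type. These groups overlapped too (difference 0.16 ± 0.30, interval from −0.47 to 0.80, adjusted p = 1). A p that misses the threshold does not show that the levels were alike, and the intervals give the sizes that remain possible. The dimmer Mybl2 probe set (1454946_at) had a difference of 0.80 ± 0.56 (17 dpp, adjusted p = 0.467) or −0.28 ± 0.65 (14 dpp, adjusted p = 1).

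Myb was at the level of the background. Its brightest probe set (1421317_x_at) lay above the array's 40th percentile on 2 of 5 mutant arrays and 1 of 5 wild-type arrays at 17 dpp, and on 1 of 5 and 1 of 3 at 14 dpp. Its signal ran from 18.3 to 61.2 in mutants at 17 dpp, against 26.3 to 82.6 in wild type, and from 35.1 to 84.6 in mutants at 14 dpp, against 60 to 75.2 in wild type. The differences were 0.16 ± 0.45 and −0.46 ± 0.52 (adjusted p = 0.896 and 1). The Myb probe sets that were not tested (1450194_a_at and 1422734_a_at) ran from 2.29 to 96.4 over the 18 arrays, and 1 array exceeded its 40th percentile, wild-type replicate 4 at 17 dpp for 1450194_a_at.

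By the probe sets annotated to them alone, the MuvB subunits gave no call in the group means model at either age. Over the 13 probe sets of the 7 genes other than Mybl1 and Tesmin the differences ran from −0.88 to 0.80 at 17 dpp and from −0.46 to 0.61 at 14 dpp, with the smallest adjusted p at 0.25 and 1. None of the 13 had groups that did not overlap at either age. Lin9, a core subunit, read 589, 787, 1098, 1497 and 975 in mutants at 17 dpp by its brighter probe set (1428639_at), against 741, 1150.0, 1927, 2068 and 1714 in wild type. Wild type tended to the higher values, but the groups overlapped (difference −0.59 ± 0.36, adjusted p = 0.396, and −0.41 with the block, adjusted p = 0.137). In the younger testes it read 640.0, 586, 293, 312 and 306 in mutants, against 516, 677 and 249 in wild type. There the array sets and not the genotypes separated the values, with all 4 arrays of set 2 below the arrays of set 1 (difference −0.14 ± 0.42, adjusted p = 1). The dimmer Lin9 probe set (1443984_at) gave 0.17 ± 0.67 at 17 dpp and 0.23 ± 0.77 at 14 dpp (adjusted p = 0.925 and 1).

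Lin54, the subunit that binds DNA, read 770.3, 617, 1083, 1154 and 1229 in mutants at 17 dpp by its brighter probe set (1435181_at), against 432, 671, 963, 1049 and 952 in wild type. Within set 1 (1 wild-type array) and within set 3 every mutant array lay above every wild-type array, while over all arrays the groups overlapped. The difference was 0.28 ± 0.26 (adjusted p = 0.608), and with the block it was 0.45 ± 0.15 and passed narrowly (adjusted p = 0.0479), in a fit that called 18.8% of all probe sets. The 2 sets gave 0.67 (set 1, adjusted p = 0.384, with 1 wild-type array) and 0.36 (set 3, adjusted p = 0.23). The second Lin54 probe set (1458582_at) gave 0.36 ± 0.27 at 17 dpp (adjusted p = 0.494). At 14 dpp the differences were 0.18 ± 0.31 for 1435181_at and 0.28 ± 0.31 for 1458582_at (adjusted p = 1 for each). For the brighter probe set the difference from wild type thus had the opposite sign to that of Tesmin, its relative. In the group means model the Lin54 difference at 17 dpp lay near the median of all probe sets (0.25).

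Lin37, which is known to matter for repression by DREAM, has 1 probe set (1426577_a_at). It read 623, 559, 197, 80.7 and 196 in mutants at 17 dpp, against 479.5, 198, 106, 116 and 65.5 in wild type. The arrays of set 1 were the highest of both groups, and the groups overlapped (difference 0.77 ± 0.53, adjusted p = 0.456, and 0.36 with the block, adjusted p = 0.402). At 14 dpp it read from 617 to 986 in mutants, against 542 to 876 in wild type (difference 0.10 ± 0.61, adjusted p = 1). Lin52, the subunit that links MuvB to p107, p130 or MYB, ran from 40.7 to 139 in mutants at 17 dpp by 1446759_at, against 40.1 to 148 in wild type. The groups overlapped over nearly their whole ranges (difference −0.30 ± 0.44, adjusted p = 0.755). The other Lin52 probe set (1447482_at) gave −0.88 ± 0.41 at 17 dpp (adjusted p = 0.25). A brighter probe set that Lin52 shares with Gm7020 (1434161_at), outside the counts, was lower in mutants at 17 dpp (−1.13 ± 0.22, limma adjusted p = 0.00264). Which of the genes gives that signal was not tested. At 14 dpp the differences of Lin52 were 0.45 ± 0.51 (1446759_at) and 0.33 ± 0.48 (1447482_at), with an adjusted p of 1 for each.

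Foxm1, the forkhead factor that follows B-MYB on MuvB in G2, read 376, 371, 321, 390.0 and 253 in mutants at 17 dpp by its brightest probe set (1448833_at), against 308, 194, 219, 271 and 295 in wild type. Of the mutant arrays 4 lay above all wild-type arrays and replicate 5 did not, so the groups overlapped (difference 0.41 ± 0.30, adjusted p = 0.476). At 14 dpp it read 206, 309.5, 422, 498 and 507 in mutants, against 349.5, 286 and 644 in wild type. Here set 2 held the high arrays of both genotypes (difference −0.12 ± 0.34, adjusted p = 1). The other tested Foxm1 probe sets gave 0.32 ± 0.73 (1417748_x_at) and −0.72 ± 0.82 (1448834_at) at 17 dpp, and the untested one (1437138_at) was below the 40th percentile on all 18 arrays.

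**Figure D2:**
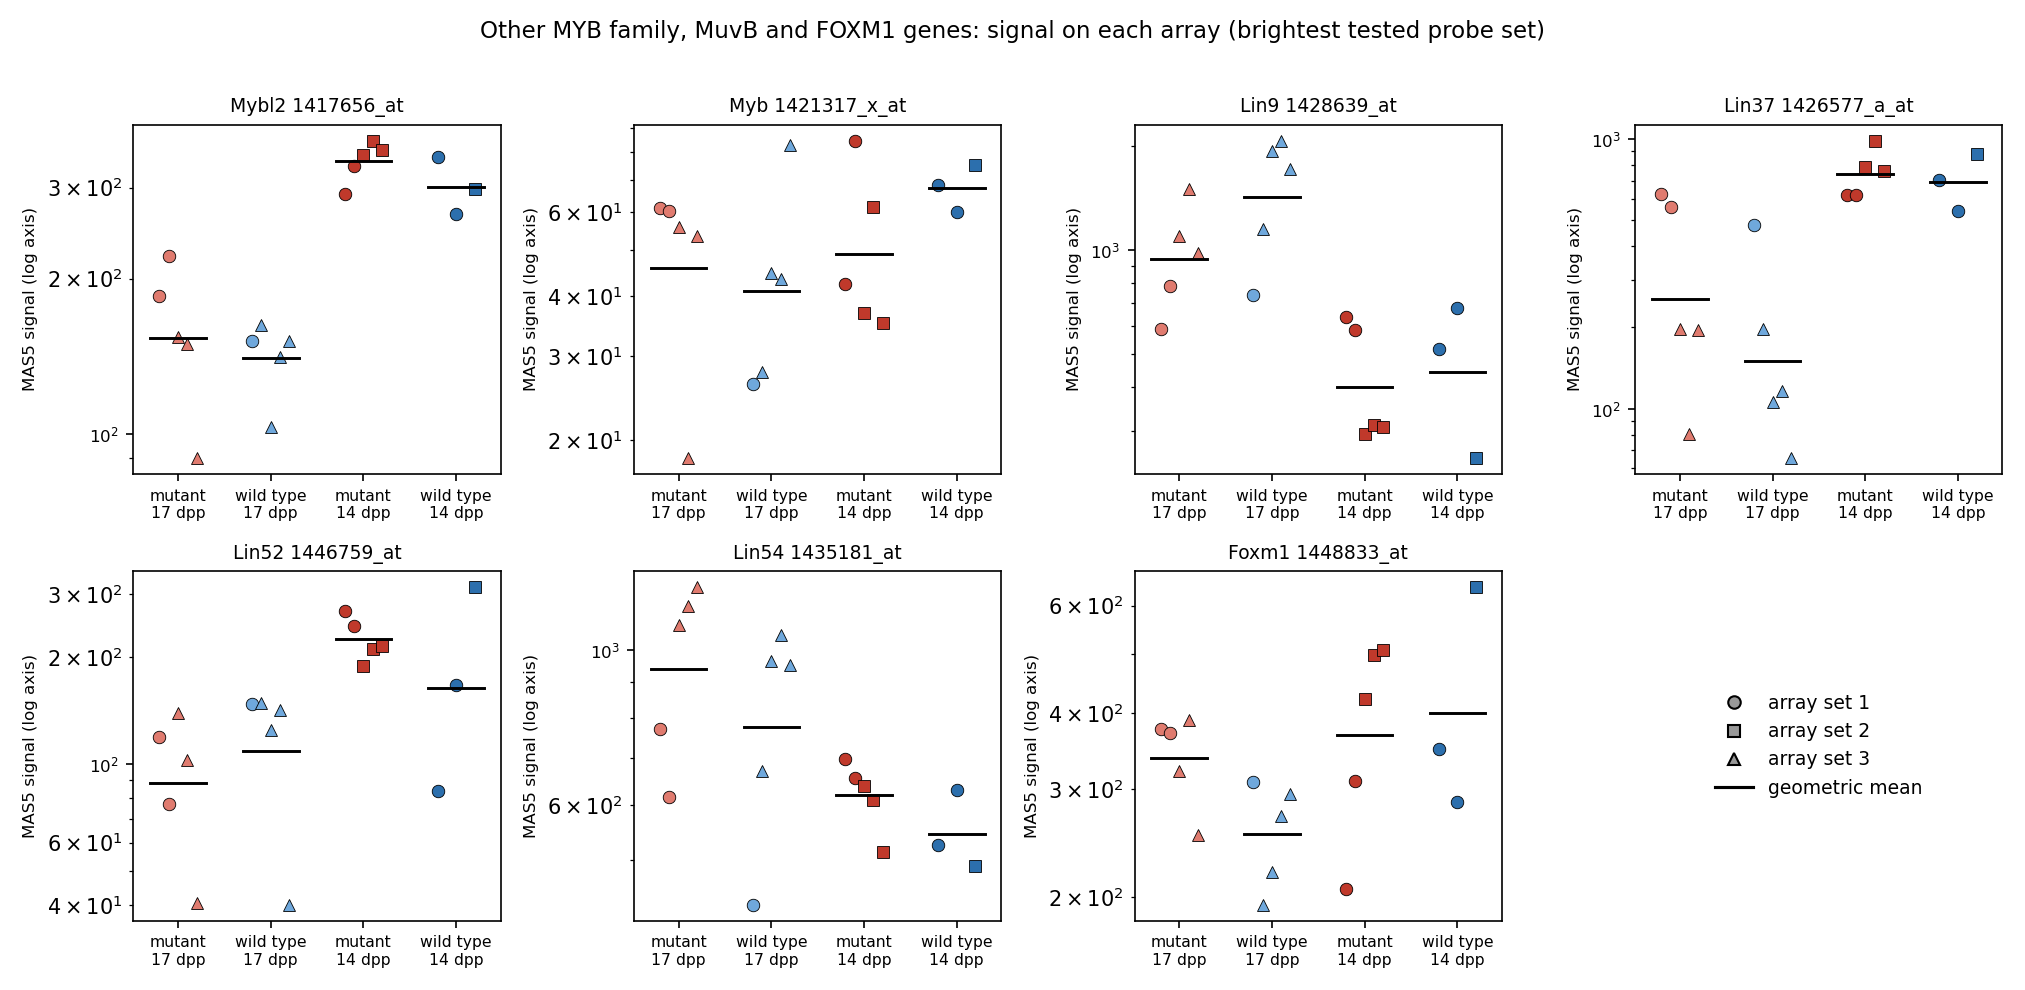
MAS5 signal (log axis) of the brightest tested probe set of Mybl2, Myb, Lin9, Lin37, Lin52, Lin54 and Foxm1 on each of the 18 arrays, with the array set as the shape of the point and a bar for each group's geometric mean. Mutant and wild-type points of 1 age overlap in all 7 panels, and the values of Lin9, Lin37 and Lin54 at 17 dpp differ between array sets 1 and 3 in both genotypes.

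**Figure D3:**
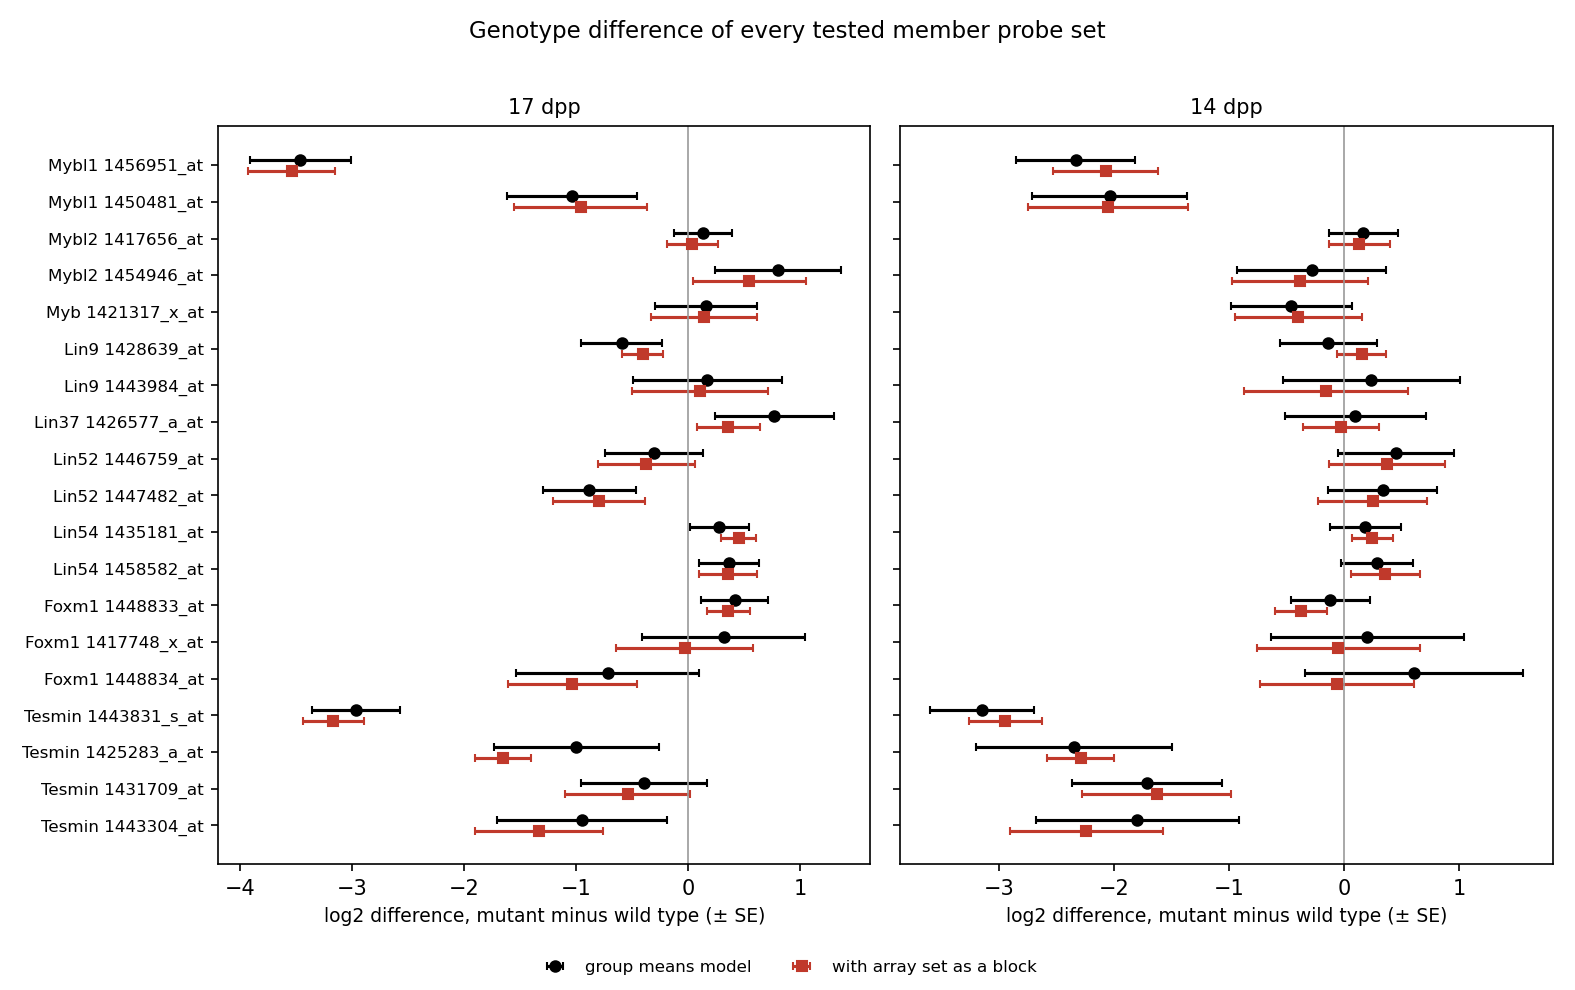
Log2 difference of mutant over wild type with its standard error for the 19 tested probe sets at 17 dpp (left) and 14 dpp (right), from the group means model (black) and with the array set as a block (red). Both Mybl1 and all 4 Tesmin probe sets lie left of 0 at both ages, while the other 13 lie within 1 of 0 in the group means model.

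Between the ages the members' values moved together with the array sets. The median difference of 17 minus 14 dpp over all probe sets was −0.34 in mutants and −0.44 in wild type. How many of all probe sets had no overlap between the ages was not counted. The later age gave 3 of 19 probe sets called in mutants, against 1.92% of all probe sets, and 6 of 19 in wild type, against 21.4% of all. With the block 2 of 19 were called in mutants, against 1.37% of all, and 1 of 19 in wild type, against 7.63%. The counts without the block fell to 0 when single arrays were left out, in mutants replicates 3, 4 or 5 at 14 dpp or 3 or 4 at 17 dpp, and in wild type replicates 1 or 3 at 14 dpp. The comparisons of the genotypes and of the ages share their arrays and are given side by side only.

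Tesmin 1443831_s_at was called with age in both genotypes, with and without the block. Its geometric mean in mutants was 459 at 17 dpp and 141 at 14 dpp, a difference of 1.71 ± 0.39 (limma adjusted p = 0.0343), or 1.86 with the block (adjusted p = 0.0125). In wild type it was 3575 at 17 dpp and 1249.8 at 14 dpp, a difference of 1.52 ± 0.45 (adjusted p = 0.0274), or 2.08 with the block (adjusted p = 0.00392). In mutants the call was lost in the analysis of variance (adjusted p = 0.0506), with the compared groups alone (adjusted p = 0.0877) and with the mean over the Tesmin probe sets (0.093, adjusted p = 0.911). Within set 1 it was 1.96 in mutants (adjusted p = 0.0457) and 1.79 in wild type (adjusted p = 0.0922). The mean over the Tesmin probe sets had the opposite sign in wild type (−0.84). Of these probe sets 1443304_at fell by 2.80 ± 0.88 (adjusted p = 0.033), which did not pass with the block (−0.69, adjusted p = 0.681) and turned its sign within set 1 (0.19).

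Mybl1 1456951_at rose with age in wild type by 1.52 ± 0.52 (limma adjusted p = 0.0448), with every array at 17 dpp above every array at 14 dpp. With the block the difference was 1.51 (adjusted p = 0.121), within set 1 it was 0.77 (adjusted p = 0.603), and without any 1 of 7 of the 8 wild-type arrays the call was lost, with adjusted p of up to 0.148. The same probe set differed by 0.40 ± 0.45 between the ages in mutants (adjusted p = 0.581).

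Mybl2 1417656_at was lower at 17 dpp in both genotypes, by −1.14 ± 0.26 in mutants (limma adjusted p = 0.0341) and −1.10 ± 0.30 in wild type (adjusted p = 0.0199), with no overlap between the ages in either. The block gave −0.79 in mutants (adjusted p = 0.309) and −0.70 in wild type (adjusted p = 0.221), and set 1 alone gave −0.62 in mutants (adjusted p = 0.791) and −1.0 in wild type (adjusted p = 0.304). With a common median the calls were lost, at −0.80 in mutants (adjusted p = 0.0935) and −0.75 in wild type (adjusted p = 0.121). They were also lost with quantile normalization, at −0.72 in mutants (adjusted p = 0.0937) and −0.47 in wild type (adjusted p = 0.277). The direction was the same in each of these fits. Lin9 1428639_at was higher at 17 dpp in wild type by 1.68 ± 0.42 (adjusted p = 0.0145) and Lin37 lower by −2.21 ± 0.61 (adjusted p = 0.0212). With the block these were 0.57 (adjusted p = 0.229) and −0.42 (adjusted p = 0.598). With a common median Lin37 gave −1.85 and was not called (adjusted p = 0.0705). Foxm1 1448834_at was lower in mutants at 17 dpp by −3.84 ± 0.82 (adjusted p = 0.0276), or −1.39 with the block (adjusted p = 0.596). Its signal at 14 dpp was 439.9 to 455 on the 4 arrays of set 2, against 63.5 to 94.5 on the 4 arrays of set 1, in both genotypes. Outside set 1 each array set held 1 age, so for these 4 genes age and array set cannot be told apart there.

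Other partners of the complex were read by their brightest tested probe sets. Of 9 genes of DREAM and MuvB outside the members, 1 rose and 1 fell at 17 dpp, against 2.03% of 15307 genes higher and 5.83% lower. Rbl1, which encodes p107, fell by 1.06 ± 0.19 on the log2 scale (limma adjusted p = 0.00178), with a geometric mean signal of 1288 in mutants and 2677 in wild type. Tfdp2, a DNA-binding partner of E2F factors, rose by 0.87 ± 0.22 (adjusted p = 0.0208), with a geometric mean of 1539.7 in mutants and 841 in wild type. At 14 dpp 0 of the 9 were called and 0 had an unadjusted p under 0.05. The list's median was 0.17 at 17 dpp and −0.02 at 14 dpp, beside 0.26 and 0.003 for all genes. With the block 3 rose (Tfdp2, Rbbp7 and Dyrk1a) and Rbl1 fell at 17 dpp, where 18.8% of all probe sets were called. Rbbp4, the shared subunit of MuvB, gave −0.08 ± 0.24 and −0.05 ± 0.27.

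Of 29 tested G2 and mitosis genes that MuvB is known to activate with B-MYB or FOXM1, 4 fell at 17 dpp and none rose, against 5.83% of all genes lower. They were the centrosomal kinase Nek2 (−2.46 ± 0.58, limma adjusted p = 0.0147), the spindle midzone protein Prc1 (−1.30 ± 0.26, adjusted p = 0.00371), the activator of the anaphase complex Cdc20 (−1.06 ± 0.26, adjusted p = 0.0195) and the checkpoint kinase Ttk (−0.85 ± 0.24, adjusted p = 0.0455). The list's median was 0.08, and with the block 8 fell and 3 rose, against 18.8% of all probe sets called. At 14 dpp 0 of 29 were called and 0 had an unadjusted p under 0.05, while 28 of the 29 differences were negative (median −0.23). With the block the median at 14 dpp was −0.17, and the differences of Bub1, Ttk, Ube2c, Ect2 and Aspm were positive. Summed over the list, the signal at 14 dpp ran from 45815 to 56039 in mutants, against 56347 to 62843 in wild type. At 17 dpp the sums overlapped, from 36219 to 53206 in mutants, against 48355 to 68012 in wild type. Of 17 G1/S genes known as DREAM targets with E2F, the licensing factor Cdt1 rose at 17 dpp (1.12 ± 0.30, adjusted p = 0.0338). No other passed (median 0.56), against 2.03% of all genes higher, and at 14 dpp 0 passed (median −0.01). The medians of all genes were 0.26 at 17 dpp and 0.003 at 14 dpp. With the block 6 of the 17 rose at 17 dpp (Mcm2, Mcm4, Mcm5, Mcm6, Cdt1 and Rrm2) and Mcm7 fell. That fit called 18.8% of all probe sets.

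Among 19 tested genes known as bound or regulated by A-MYB, 12 fell at 17 dpp and none rose (median −1.56), against 5.83% of all genes lower. At 14 dpp 6 fell (median −0.88), where 0.32% of all genes were lower. With the block 19 fell at 17 dpp and 6 at 14 dpp, where 18.8% and 0.368% of all probe sets were called in either direction. Examples at 17 dpp were Piwil1 of the piRNA pathway, at 25.04 to 94.4 in mutants, against 5628 to 10240 in wild type (limma adjusted p = 2.04e-09), the chromatin factor Morc2b, at 3.21 to 98.4 in mutants, against 695 to 2842 in wild type (adjusted p = 1.96e-05), and the transcription factor Rfx4, at 13.4 to 89.3 in mutants, against 957 to 1957 in wild type (adjusted p = 1.39e-06). In mutants 3 of 5 arrays exceeded their 40th percentile for Piwil1 and 1 of 5 for Morc2b and for Rfx4, so the mutant values lie at the background and no fold is given. The list and the members were chosen with results of these arrays known, so this count is no independent evidence of its direction. It shares 5 genes with the pachytene markers (Adam2, Ccna1, Hspa2, Ldhc and Piwil1).

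Markers of pachytene spermatocytes moved with Mybl1 and Tesmin. They too were chosen with earlier results of these arrays known, and Adam2, Ccna1, Hspa2, Ldhc and Piwil1 are also in the A-MYB list. Their counts are therefore no independent evidence. Of 12 such markers 11 fell at 17 dpp (median −5.38), against 5.83% of all genes lower. At 14 dpp 7 fell (median −2.54), against 0.32% of all genes, and none rose at either age. Their summed signal ran from 3988 to 5402 in mutants at 17 dpp, against 77812 to 168595 in wild type, and from 3573 to 4681 in mutants at 14 dpp, against 14866 to 21014 in wild type. In mutants 3 of the 12 lay below the 40th percentile on all arrays at 17 dpp, and 5 at 14 dpp. Of the 8 leptotene and zygotene genes Meiob fell and Dmc1 and Tex15 rose at 17 dpp (median −0.34), where 2.03% of all genes rose. None of these 8 passed at 14 dpp (median −0.02). The part of the share of pachytene cells in the values of Mybl1 and Tesmin was not tested.

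Markers of other cells mostly did not pass, though the differences of all those listed here were positive at 17 dpp. None of 11 spermatogonia genes passed at either age (7 and 0 at an unadjusted p under 0.05 at 17 and 14 dpp), with all 11 differences positive at 17 dpp (median 0.96) and a median of 0.08 at 14 dpp, and their summed signal at 17 dpp ran from 8780 to 21096 in mutants, against 4028 to 12856 in wild type. None of 10 Sertoli, 5 Leydig or 5 peritubular myoid cell markers passed at either age, with medians at 17 dpp of 0.60, 0.84 and 0.63. The median of all genes at 17 dpp was 0.26. With the block 4 spermatogonia, 5 Sertoli, 0 Leydig, 1 peritubular myoid and 3 of 7 macrophage genes rose at 17 dpp, against 18.8% of all probe sets called in either direction. Without the block Csf1r alone of the macrophage markers rose at 17 dpp (median 0.62), against 2.03% of all genes higher. None of the macrophage markers passed at 14 dpp (median 0.29). The part of all these cell types in the members' values was not tested.

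**Figure D4:**
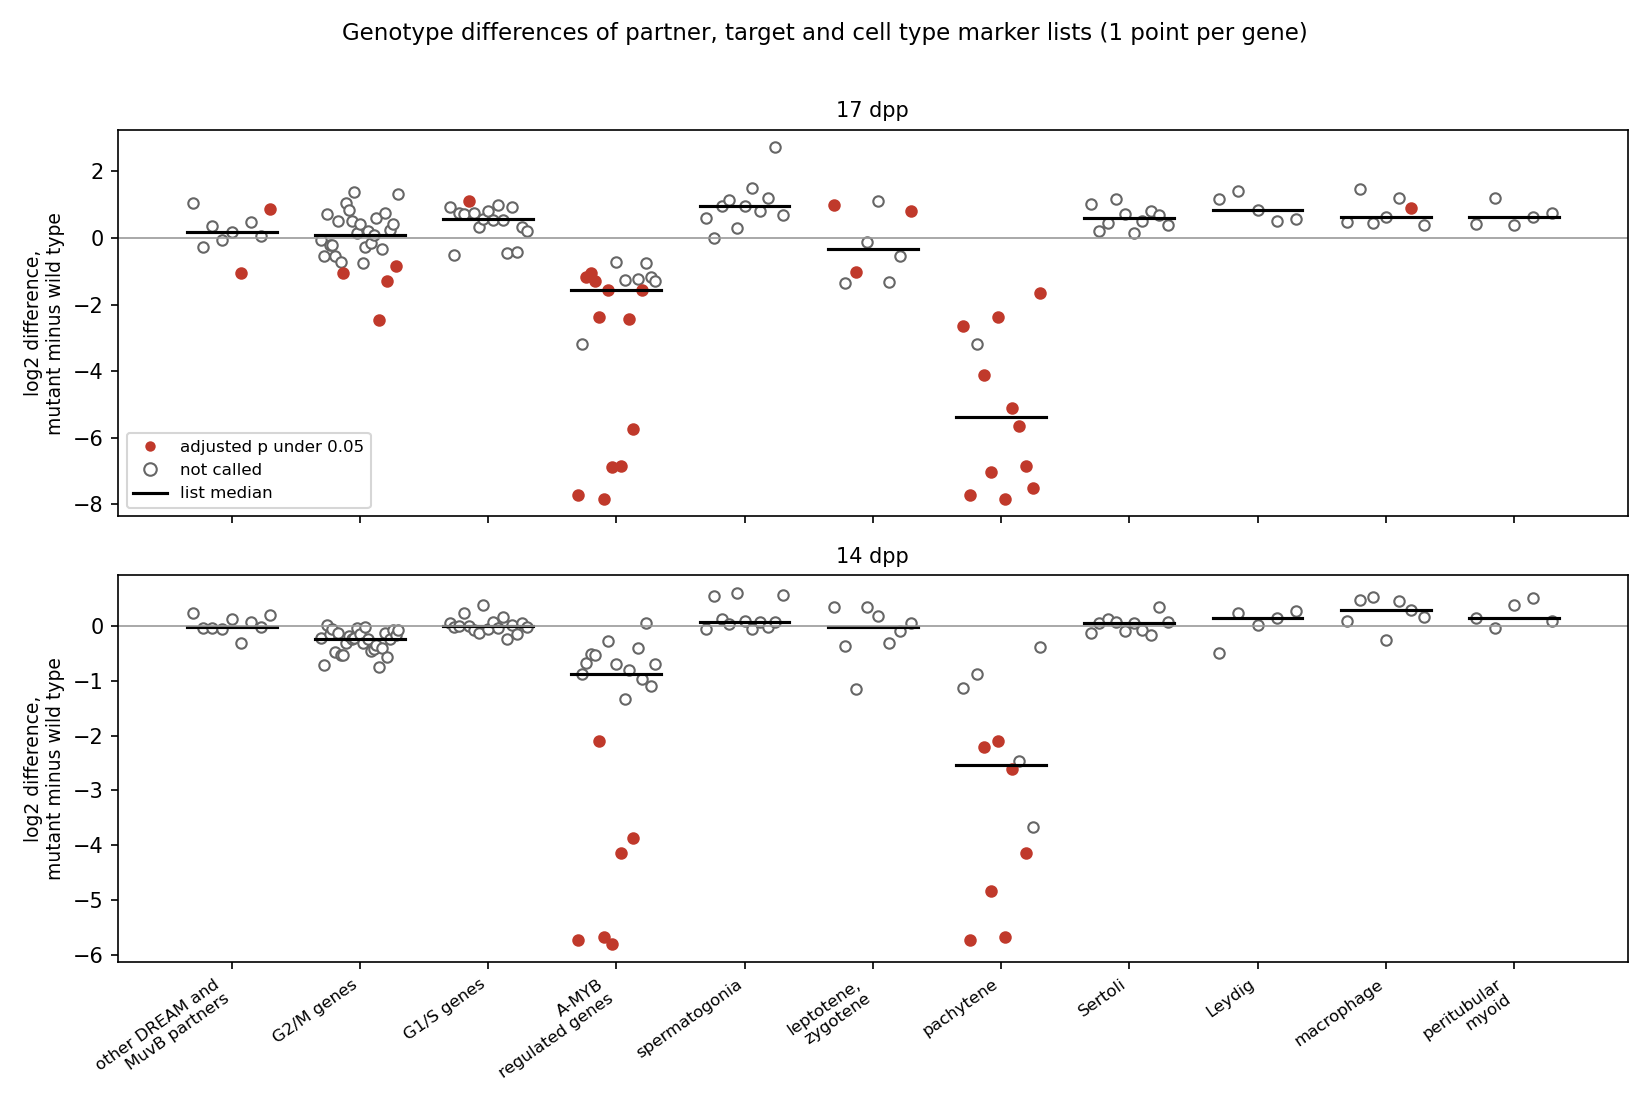
Log2 difference of mutant over wild type for each gene of 11 lists, by its brightest tested probe set, at 17 dpp (top) and 14 dpp (bottom), with the list median as a bar and genes with an adjusted p under 0.05 filled. Points of genes whose mutant signals lie at the background are fitted values and no measure of the fold. At 17 dpp 12 genes regulated by A-MYB and 11 pachytene markers are filled and below 0, where 5.83% of all genes were lower. The medians of the somatic lists lie between 0.60 and 0.84, beside 0.26 for all genes.

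The genes whose log2 signal followed that of Mybl1 most closely over the 18 arrays were Mmachc (Pearson's r = 0.961), Cox7b2 (0.961) and Psma8 (0.960), and for Tesmin they were 1700102P08Rik (0.951), Sugp2 (0.951) and Hspa2 (0.944). After each array set's mean was taken off, Cox7b2 (0.964), Cyct (0.963) and Psma8 (0.961) came first for Mybl1, and Pifo (0.969), Crisp2 (0.954) and Hsf5 (0.953) for Tesmin. Mybl1 and Tesmin correlated with each other at 0.907, or 0.881 after the set means were taken off. Lin54 correlated with Mybl1 at 0.0024 and with Tesmin at 0.028 over all arrays, and at −0.61 and −0.66 after the set means were taken off. Mybl2 and Lin9 gave −0.82 over all arrays and −0.12 after that step, and Lin9 and Lin37 gave −0.92 and −0.72. These points share arrays, groups and array sets, so the values are a description.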

How the data were processed

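Total RNA of whole testes was measured on 18 Affymetrix mouse 430 2.0 arrays. The authors deposited 1 linear MAS5 signal intensity per probe set and array, scaled per array (MAS5 per the submitters' processing notes, version not given). Of 45101 probe sets 64 controls were left out. The log2 of the intensity was fitted without further normalization, with 1 mean per group over 18 arrays (limma 3.58.1 in R 4.3.3, lmFit and eBayes with an intensity trend, 14 residual degrees of freedom, 12 with the array set as a block). P-values were two-sided and adjusted by Benjamini-Hochberg over the 34764 probe sets that exceeded the 40th percentile of 3 or more arrays. A call is an adjusted p under 0.05; the series' text used 0.025. Annotation gave 9160 probe sets no gene and 932 several genes. A gene's value in the lists is its brightest tested probe set. List genes that passed were named, up to 6 per list and comparison by size, and the 6 genes most like Mybl1 and Tesmin were ranked by Pearson's r. The array sets were defined from the β-actin 3'/5' ratio, with bounds at 1.9 and 10. The fit was tested on simulated data with independent noise and no array set effect, which says nothing on how it copes with the array sets. The members and lists were chosen with earlier results of these data known. Replicate numbers are shared between genotypes but no source ties them to a litter or batch. The correlation of same-numbered deviations from the group means was over 0.1 in all 3 pairs at 14 dpp (0.283 to 0.385) and in 4 of 5 at 17 dpp (−0.227 to 0.777). Each pair over 0.1 lies in 1 array set, and the pair of replicate 2 at 17 dpp, at −0.227, does not. Number and set therefore cannot be told apart, and whether the numbers pair the arrays is not settled. The replicate block changed no genotype call of a single age. Alternatives were the array set as a block, each set alone, no set 3, the replicate block, other scalings and filters, 16 added to each signal, array weights, a two-way analysis of variance and each array left out.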

Additional observations from a re-analysis of the deposited data

Results flagged for a closer look

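In 57 groups of 4 or more arrays, 1 for each tested probe set and group of 5 arrays, 6 had an array far from the others by Dixon's test, and chance gives about 1 in 20. The signal of Mybl1 1450481_at was 5.99 on mutant replicate 4 at 14 dpp, with the others between 40.4 and 86.6. Myb 1421317_x_at read 18.3 on mutant replicate 4 at 17 dpp, with the others between 53.6 and 61.2. Lin52 1446759_at read 40.1 on wild-type replicate 5 at 17 dpp, with the others between 124 and 148. Lin52 1447482_at read 197 on mutant replicate 3 at 17 dpp, with the others between 47.3 and 68.1. Tesmin 1431709_at read 17.9 on wild-type replicate 5 at 17 dpp, with the others between 139 and 179.7. Tesmin 1425283_a_at read 5754 on wild-type replicate 1 at 17 dpp, with the others between 252 and 545. That array lay in set 1 and the other 4 in set 3.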

How the results depend on the processing

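Between genotypes the call of Mybl1 1456951_at at 17 dpp ended within set 1 and without set 3 (−1.92 in both), and the calls of Tesmin 1443831_s_at ended with the mean of the probe sets (−1.32 at 17 dpp and −2.25 at 14 dpp). These calls held under the other settings and without any 1 array. Within set 3 Tesmin 1425283_a_at was called at 17 dpp as well (−1.39). Over all arrays the count of member calls at 17 dpp was 2, or 4 with the array set block (2 to 2 with 1 array left out). At 14 dpp it was 1, against 2 with that block, within set 1, within set 2 or with the compared groups alone, 4 without set 3 and 5 with array weights (1 to 1 with 1 array left out). For the mean of both ages it was 2, against 5 with the block or without set 3 and 4 with array weights (2 to 3). The change of the genotype difference gave 0 throughout (0 to 0), and 0 of 19 at an unadjusted p under 0.05. With age in mutants it was 3, against 1 within set 1, with the analysis of variance at 0.025 or the compared groups alone, and 9 with array weights (0 to 6 with 1 array left out: at 17 dpp 6 without mutant replicate 1, 5 without 2 and 1 without 5). With age in wild type it was 6, against 1 with the block, 0 within set 1, 2 without set 3, with a common median or with the analysis of variance at 0.025, 3 with quantile normalization and 13 with array weights (0 to 10: 10 without wild-type replicate 1 and 2 without 5 at 17 dpp, 3 without 2 at 14 dpp). The replicate block gave counts of 2 at 17 dpp, 1 at 14 dpp, 3 for the mean, 0 for the change, 3 and 5 with age in mutants and wild type. Left-out arrays moved Mybl1 1456951_at at 17 dpp between −3.66 and −3.18. All differences whose sign turned were uncalled, except Tesmin with age in wild type. With the mean of the probe sets the sign turned for Mybl2 1417656_at at 14 dpp (−0.0587), Lin9 1428639_at at 14 dpp (0.0469), Foxm1 1448833_at at 14 dpp (0.229), Tesmin 1443831_s_at with age in wild type (−0.836). With the replicate block the sign turned for Mybl2 1454946_at at 14 dpp (0.158), Lin9 1443984_at at 14 dpp (−0.16), Foxm1 1417748_x_at at 14 dpp (−0.104). With the array set block the sign turned for Lin9 1428639_at at 14 dpp (0.151), Lin9 1443984_at at 14 dpp (−0.16), Lin37 1426577_a_at at 14 dpp (−0.0267), Foxm1 1417748_x_at at 14 dpp (−0.0527), Foxm1 1448834_at at 14 dpp (−0.0616), Foxm1 1417748_x_at at 17 dpp (−0.0315). Within set 1 the sign turned for Lin9 1428639_at at 14 dpp (0.0519), Lin9 1443984_at at 14 dpp (−0.595), Lin37 1426577_a_at at 14 dpp (−0.000768), Foxm1 1417748_x_at at 14 dpp (−0.0918), Foxm1 1448834_at at 14 dpp (−0.0912), Lin9 1443984_at at 17 dpp (−1.44), Tesmin 1443304_at with age in wild type (0.188). Within set 2 the sign turned for Lin9 1428639_at at 14 dpp (0.284), Lin37 1426577_a_at at 14 dpp (−0.0613), Lin52 1446759_at at 14 dpp (−0.622), Foxm1 1417748_x_at at 14 dpp (−0.000505), Foxm1 1448834_at at 14 dpp (−0.0221). With a common median the sign turned for Lin37 1426577_a_at at 14 dpp (−0.0217), Mybl2 1417656_at at 17 dpp (−0.0125). With array weights the sign turned for Foxm1 1448833_at at 14 dpp (0.328). Within set 3 the sign turned for Mybl2 1417656_at at 17 dpp (−0.109), Myb 1421317_x_at at 17 dpp (−0.277), Foxm1 1417748_x_at at 17 dpp (−0.192). With quantile normalization the sign turned for Mybl2 1417656_at at 17 dpp (−0.176), Myb 1421317_x_at at 17 dpp (−0.00608), Foxm1 1417748_x_at at 17 dpp (−0.0249). Without set 3 the sign turned for Lin9 1443984_at at 17 dpp (−1.44). With 16 added the sign turned for Lin9 1443984_at at 17 dpp (−0.017). With 1 array left out the sign turned within these ranges: Lin9 1428639_at at 14 dpp (−0.555 to 0.165), Lin37 1426577_a_at at 14 dpp (−0.0821 to 0.265), Lin52 1446759_at at 14 dpp (−0.0323 to 0.922), Foxm1 1448833_at at 14 dpp (−0.364 to 0.222), Foxm1 1417748_x_at at 14 dpp (−0.0203 to 0.501), Mybl2 1417656_at at 17 dpp (−0.0020 to 0.323), Myb 1421317_x_at at 17 dpp (−0.00548 to 0.486), Lin9 1443984_at at 17 dpp (−0.393 to 0.491), Foxm1 1417748_x_at at 17 dpp (−0.39 to 0.899). The cause was not tested. A common median put the median of all probe sets at 17 dpp at 0.11, with 114 higher and 1341 lower calls, and quantile normalization gave 321 and 1493, beside 513 and 1341. Dim probe sets, near or below the 40th percentile, limit what can be read for Myb and for the weaker Tesmin and Foxm1 probe sets.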

Other observations

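A pair of probe sets that members share with other genes stood outside the counts. The one annotated to both Gm7020 and Lin52 (1434161_at) read 779.9, 898, 896, 696 and 983 in mutants at 17 dpp, against 1428, 1709, 2191, 1773 and 2306 in wild type. No mutant array reached a wild-type one, and the difference was −1.13 ± 0.22 (limma adjusted p = 0.00264). At 14 dpp it read 927, 729.8, 539.7, 637 and 490.2 in mutants, against 836, 916 and 702 in wild type, and the groups overlapped (difference −0.33 ± 0.25, adjusted p = 1). Which of its genes gives the signal was not tested. The probe set annotated to Tex52, Pebp1 and Foxm1 (1453107_s_at) gave −0.01 ± 0.49 at 17 dpp and 0.18 ± 0.57 at 14 dpp (adjusted p = 0.995 and 1).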
